A study of Homo sapiens with 6 samples.

Results

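Kinesins are the motor proteins that use ATP to walk along microtubules or to take microtubules apart. In dividing cells one set builds, aligns and separates the spindle and completes cytokinesis. Another set carries organelles, vesicles and mRNA through the cytoplasm, and a smaller set works in cilia or in Hedgehog signalling. In a colorectal cancer line the mitotic set belongs to the program of proliferation, while most transport motors are expressed in many tissues.

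The kinesin genes described here are all rows whose symbol is KIF followed by a number, with or without a letter A to C, or KIFC followed by a digit. The rule found 42 of the 20474 annotated genes. They were sorted by known role into 14 mitotic kinesins, 15 transport kinesins, 6 kinesins of cilia or of Hedgehog signalling and 7 others.

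The cells were HCT116, an established human colorectal cancer line, in which POU2F1, the gene of the octamer-binding factor OCT1, was lowered by siRNA. The sicontrol group received a non-targeting siRNA, carries the genotype WT in the labels and has 3 libraries. The siPOU2F1 group carries the label POU2F1 knockdown and also has 3. Both were made from polyA RNA taken 48 h after transfection. Whether a group's libraries were separate cultures is not in the labels, and p-values here reflect only the spread among these 6 libraries, which may be technical. In bulk RNA, fewer cells of a type and less RNA per cell cannot be told apart. How many siRNA sequences were used is not given in the sources used here.

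Values are FPKM, a fragment count scaled to transcript length and to the size of the library, so levels of different genes can be compared per length. Between 11670 and 11853 annotated genes had at least 1 FPKM in a library. Of 8 epithelial markers 7 had at least 1 FPKM in every library, and the summed level of the list was 2850 to 3720 FPKM in sicontrol and 3870 to 5500 FPKM in siPOU2F1. The other marker lists were low: summed endothelial markers lay between 0.575 and 0.916 FPKM, blood cell markers between 0.811 and 1.21 FPKM and fibroblast markers between 1.55 and 3.58 FPKM over all libraries, and COL1A1 was the only one of the fibroblast genes at 1 FPKM or more. PTPRC and HBB among the blood cell markers, and DCN and COL3A1 among the fibroblast markers, were listed at 0 in every library. LYZ, another of the blood cell markers, lay between 0.649 and 1.06 FPKM. POU2F1 measured 4.16, 3.60 and 4.26 FPKM in sicontrol and 1.87, 1.69 and 1.73 FPKM in siPOU2F1, so all siPOU2F1 libraries lay below all sicontrol libraries (log2 fold change -0.99, SE 0.14, limma adjusted p = 0.0333; exact two-sided permutation p = 0.1, the smallest that 3 against 3 can give). With a library dropped, the adjusted p of POU2F1 was 0.00982 without siPOU2F1 replicate 3 and 0.114 to 0.22 without another. The library siPOU2F1 replicate 3 stood apart: limma called 147 of 11831 tested genes with all libraries and 2954 without it. Results for the kinesins are therefore given with and without that library where its removal changes a call. That library was singled out by these same counts. Calls and adjusted p-values without it therefore describe how the fit depends on it and carry no separate test.

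Summed over the 42 genes, the kinesin level was 402.8, 397.2 and 413.3 FPKM in the sicontrol libraries. It was 415.7, 402.1 and 350.1 FPKM in siPOU2F1 replicates 1 to 3, where the third library alone lay below the sicontrol range. In sicontrol the mitotic kinesins held 45.5% ± 2.32 of this sum and the transport kinesins 42.6% ± 2.24 (SD, n = 3). In siPOU2F1 they held 48.2% ± 4.58 and 38.0% ± 4.59 (SD, n = 3). The mitotic share was 51.1% and 50.6% in siPOU2F1 replicates 1 and 2 but 43.0% in replicate 3, so the groups overlapped. The transport share was 35.0% and 35.8% in the same libraries and 43.3% in replicate 3, inside the sicontrol range of 40.1% to 44.3%.

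Of the 42 genes, 33 averaged 1 FPKM or more across all 6 libraries and were tested. These were 12 mitotic, 12 transport, 4 ciliary or Hedgehog and 5 other kinesins. KIF5B, the ubiquitous heavy chain of conventional kinesin, had the highest mean over all libraries (43.0 FPKM). KIF2C, a depolymerase that corrects attachments at the centromere, came next (33.0 FPKM), followed by KIF23, a cytokinesis motor of the central spindle (26.9 FPKM). KIFC3, a minus-end-directed motor, had 23.6 FPKM and KIF2A, a depolymerase of interphase cells and spindle poles, had 22.3 FPKM. Neighbours in this order were often closer than the spread between libraries. KIFC3 lay between 21.2 and 24.9 FPKM and KIF2A between 19.3 and 24.2 FPKM.

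**Figure D1:**
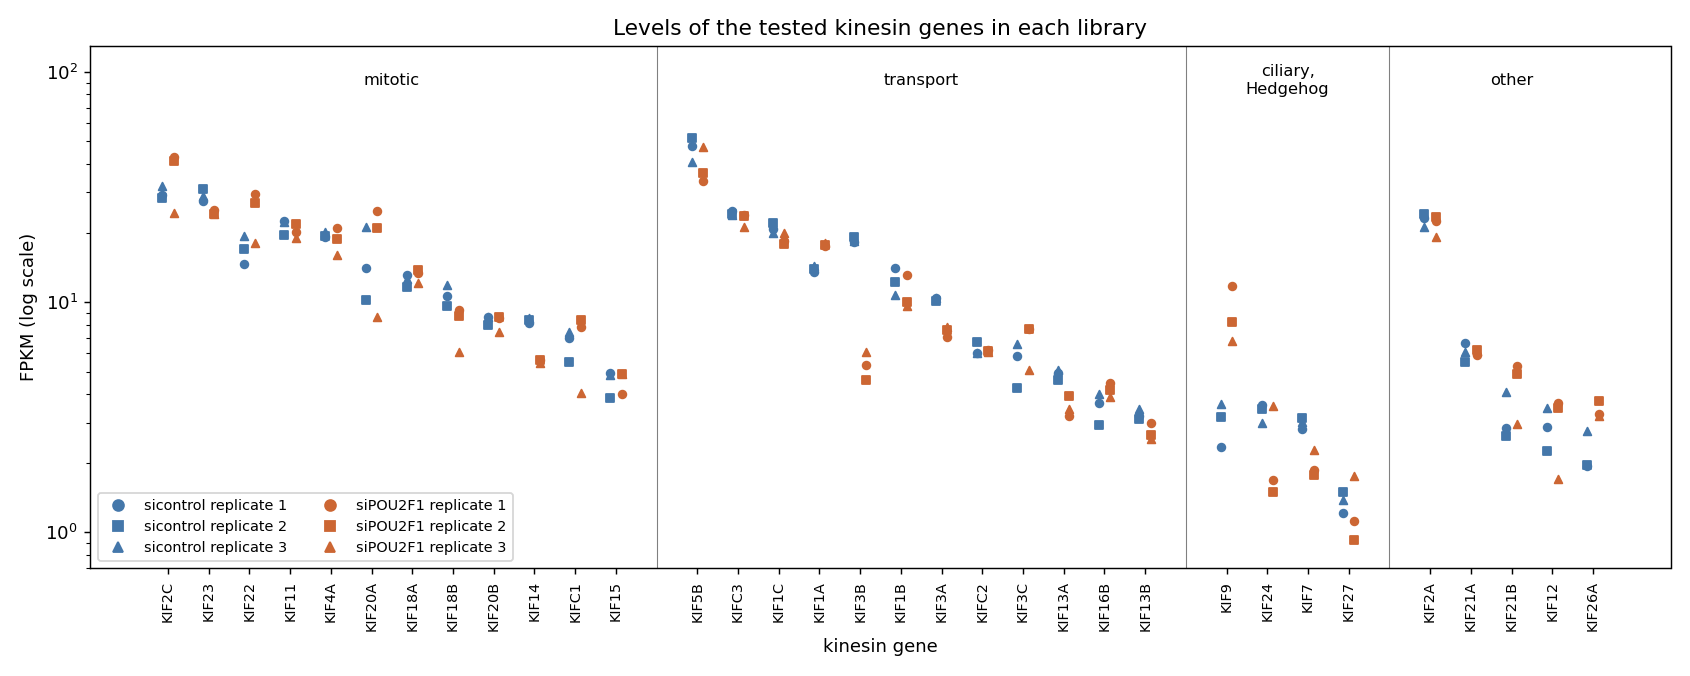
FPKM (log axis) of the 33 tested kinesin genes, grouped by role and ordered by mean, with 1 point per library (blue: sicontrol, orange: siPOU2F1, shape: replicate). The groups lie well apart for KIF3B and for KIF9, and siPOU2F1 replicate 3 lies below the other libraries for KIF20A, KIF18B and KIFC1.

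The remaining 9 genes had means under 1 FPKM and were not tested. KIF5A and KIF5C, the neuronal heavy chains of conventional kinesin, had means over all libraries of 0.545 and 0.336 FPKM. KIF17, a homodimeric motor of the kinesin-2 family, had 0.316 FPKM. KIF19 and KIF6, both linked to cilia, had 0.176 and 0.0818 FPKM. KIF26B had 0.157 FPKM and KIF25 had 0.0311 FPKM. KIF4B, an intronless and nearly identical copy of KIF4A, had 0.0915 FPKM, and reads may be divided between these copies in ways the files do not show. KIF2B was listed at 0 in all 6 libraries.

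Lowering POU2F1 was accompanied by 1 kinesin that fell, KIF3B, and 1 that rose, KIF9, among the 33 tested (limma, adjusted p under 0.05 over all 11831 tested genes). Over all tested genes 1.24% were called by this rule, 0.845% lower and 0.397% higher. The median log2 fold change was -0.08 for the tested kinesins and -0.01 for all tested genes. It was -0.03 for the mitotic kinesins and -0.16 for the transport kinesins. Fold changes are siPOU2F1 minus sicontrol of log2(FPKM + 0.5), so those of genes with low levels are understated. Below 0 were 21 of the 33 kinesins, against 51.5% of all tested genes. At an unadjusted p under 0.05 there were 10 kinesins, against 18.1% of all tested genes. Of these, 4 were higher, against 8.22%, and 6 were lower, against 9.9%.

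**Figure D2:**
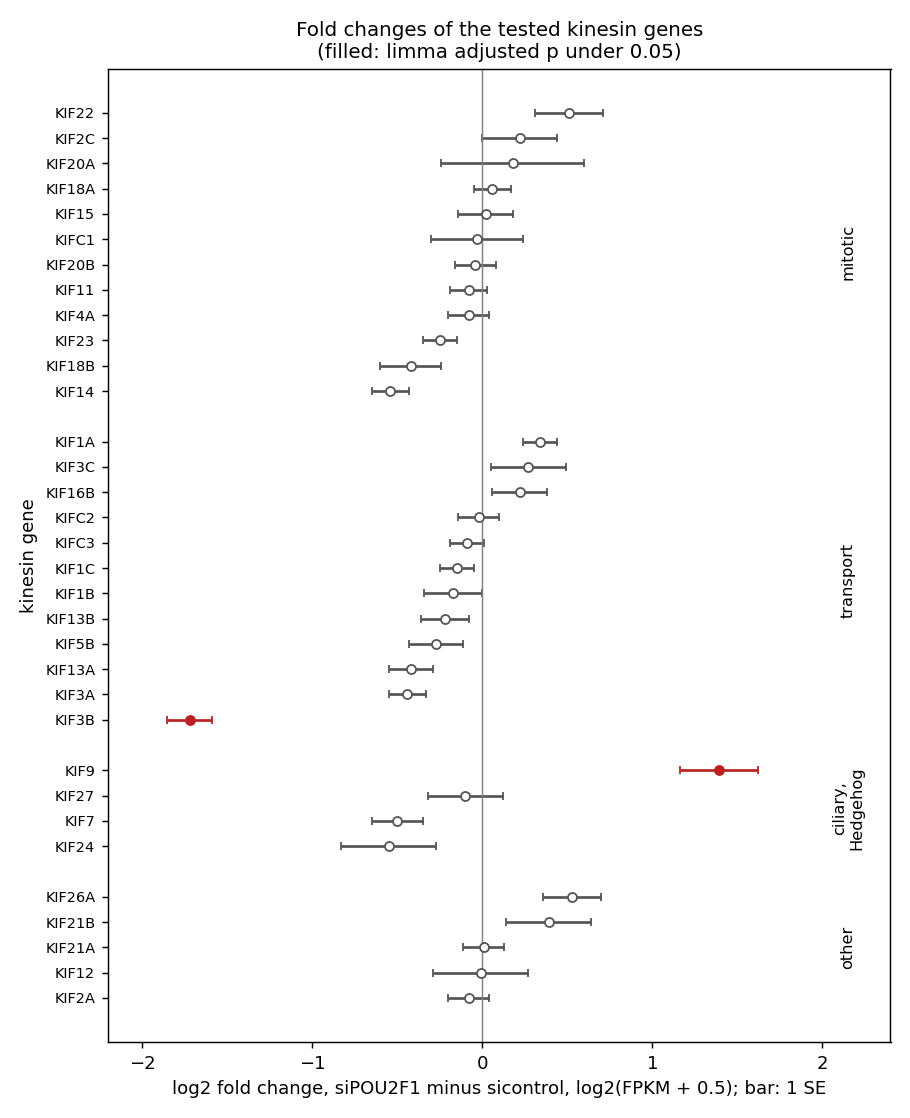
Log2 fold change (siPOU2F1 minus sicontrol, x axis) of each tested kinesin gene (y axis) with a bar of 1 SE, grouped by role. Filled red points are genes with a limma adjusted p under 0.05, which are KIF3B at -1.72 and KIF9 at 1.39.

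The largest change was in the kinesin-2 motor. Heterotrimeric kinesin-2 pairs the motor subunits KIF3A and KIF3B, or KIF3A and KIF3C, and binds the adaptor KIFAP3. It drives intraflagellar transport, the traffic that builds cilia, and carries vesicles and other cargo. KIF3B (ENSG00000101350; chr20:32277664-32335011, plus strand, GRCh38) measured 18.2, 19.3 and 18.4 FPKM in the sicontrol libraries, against 5.35, 4.61 and 6.09 FPKM after knockdown. All siPOU2F1 libraries lay far below all sicontrol libraries, replicate 3 included. The level fell on average from 18.6 ± 0.565 FPKM to 5.35 ± 0.739 (SD, n = 3), which is 28.7% of the mean in sicontrol. On the log2 scale it fell by 1.72 (SE 0.13, limma adjusted p = 0.00772). Dropping any sicontrol library, or siPOU2F1 replicate 1 or 2, moved the adjusted p of KIF3B to between 0.0546 and 0.0834, whereas dropping siPOU2F1 replicate 3 gave 0.00254. The log2 fold change over these fits ran from -1.81 to -1.62.

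The partner subunits did not pass the test with all libraries. KIF3A, the common partner subunit, measured 10.4, 10.1 and 10.4 FPKM in sicontrol and 7.06, 7.58 and 7.80 FPKM in siPOU2F1, so the groups did not overlap (log2 fold change -0.44, limma adjusted p = 0.111). Without siPOU2F1 replicate 3 it was called lower (-0.47, limma adjusted p = 0.025). KIF3C, the alternative partner, measured 5.85, 4.24 and 6.56 FPKM in sicontrol and 7.68, 7.65 and 5.09 FPKM in siPOU2F1, with overlap (0.27, limma adjusted p = 0.514). KIFAP3, the adaptor subunit, had means of 5.52 and 4.64 FPKM and also overlapped (-0.22, limma adjusted p = 0.621). KIFAP3 measured 5.74, 6.85 and 3.98 FPKM in sicontrol and 4.08, 3.82 and 6.04 FPKM in siPOU2F1.

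The share of KIF3B among the KIF3 subunits differed between the groups in the same way. KIF3B was 52.9%, 57.3% and 51.9% of the summed KIF3A, KIF3B and KIF3C level in sicontrol replicates 1 to 3. It was 26.6%, 23.2% and 32.1% in siPOU2F1 replicates 1 to 3. Per length, the ratio of KIF3B to KIF3A was 1.80 ± 0.0842 in sicontrol and 0.716 ± 0.0936 in siPOU2F1 (SD, n = 3), so KIF3B was the more abundant of the pair in each sicontrol library and the less abundant in each siPOU2F1 library. The sum of the KIF3A, KIF3B and KIF3C levels was 34.5 ± 0.868 FPKM in sicontrol and 19.6 ± 0.585 after knockdown (SD, n = 3).

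Among 21 tested genes of intraflagellar transport, the ciliary traffic that kinesin-2 powers, 1 was called, against 1.24% of all tested genes. IFT57, a subunit of the IFT-B complex, measured 9.70, 10.5 and 9.89 FPKM in sicontrol and 3.81, 3.94 and 4.68 FPKM in siPOU2F1, without overlap. It fell by 1.18 on the log2 scale (limma adjusted p = 0.015). The list's median log2 fold change was -0.02, against -0.01 for all tested genes, with 9 members above 0 and 12 below. The adjusted p of IFT57 was 0.0846 to 0.116 when a library was dropped, except siPOU2F1 replicate 3 (0.00424). No other member of the list passed with all libraries. Without siPOU2F1 replicate 3, 2 members were called higher and 1 lower, or 14.3%, against 25.0% of all tested genes. The higher ones were IFT122 (log2 fold change 0.84, limma adjusted p = 0.0168) and IFT172 (0.60, 0.0383).

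**Figure D3:**
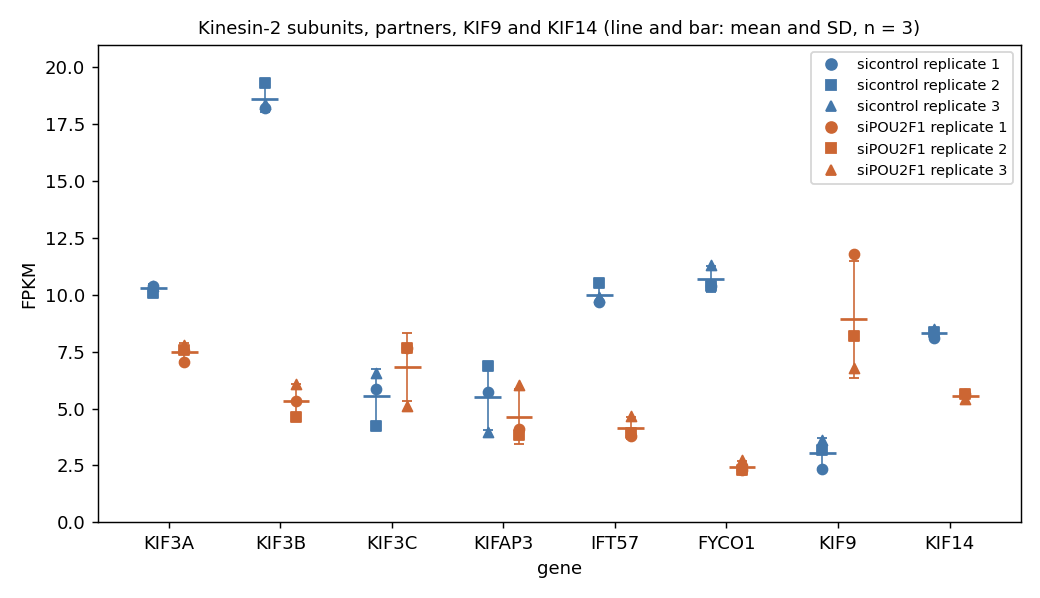
FPKM (y axis, from 0) of the kinesin-2 subunits KIF3A, KIF3B and KIF3C, their adaptor KIFAP3, IFT57, FYCO1, KIF9 and KIF14 in each library, with the mean and SD of each group (n = 3). The siPOU2F1 points lie below the sicontrol points for KIF3A, KIF3B, IFT57, FYCO1 and KIF14 and above them for KIF9, and the groups overlap for KIF3C and KIFAP3.

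The KIF3B transcript was read for 2 sequence words of 7 bases, AACTGCA and AGAATGA, that had been picked from a search of these fold changes for words common in the 3′ UTRs of genes with lower levels. Because the words came from these libraries, their presence is a description and carries no test. The sites below show where the words, in capitals, lie in the 3′ UTR of KIF3B and, for comparison, in KIF1C, KIF3A and IFT57. Sequences are from GENCODE release 29, are written 5′ to 3′ on the transcript strand and give the word with its flanks.
KIF3B, AACTGCA, copy 1: agaattgaaAACTGCAgataaccgg
KIF3B, AACTGCA, copy 2: gaaaaagaaAACTGCAgataaccct
KIF3B, AGAATGA: gaaagcaagAGAATGAccagtgacc
KIF1C, AACTGCA: agatatcccAACTGCAgccaaacca
KIF3A, AGAATGA: tacatctaaAGAATGAttccgtcct
IFT57, AGAATGA: tctgttcttAGAATGAagagaaggt

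Both AACTGCA copies of KIF3B lie in exon 9 of 9, at chr20:32333337-32333343 and chr20:32333678-32333684 (GRCh38), 341 bases apart. They share the 17 bases gaaAACTGCAgataacc. The AGAATGA copy lies in the same exon at chr20:32331583-32331589. On the transcript strand, AACTGCA occurred in 3 of the 33 tested kinesins, KIF3B, KIF1C and KIF13B, which is 9.09% against 12.4% of the 11701 tested genes with a 3′ UTR. A longer 3′ UTR has more room for a word, and the shares were not adjusted for length. The median 3′ UTR was 620 bases in tested kinesins and 994 bases in all tested genes. It was 3692 bases long in KIF3B, 4250 in KIF1C and 3225 in KIF13B. KIF1C, a motor of Golgi and vesicle traffic, had a log2 fold change of -0.15 (limma adjusted p = 0.436). KIF13B, which carries membrane cargo, had -0.22 (limma adjusted p = 0.419). AGAATGA was present in KIF3B, KIF3A, KIF13B and KIF20B, 12.1% against 14.9% of those genes. IFT57 held 1 copy of AGAATGA and none of AACTGCA. KIF9 held neither word.

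POU2F1 binds the octamer ATGCAAAT. Neither this word nor its reverse complement ATTTGCAT was found in 43 RefSeq promoter windows of 34 kinesin genes, each 300 bases long around a transcript start (GRCh38.p14). Windows of the same length were found for 9578 symbols of the 11831 tested genes. Either word was present in 180 of these 13991 windows, or 1.29%. The 34 genes include KIF3B and KIF9 and were not limited to the tested kinesins.

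The kinesins of cilia and Hedgehog signalling held the called rise. KIF9 (ENSG00000088727; chr3:47228026-47283451, minus strand, GRCh38), a motor of motile cilia and sperm flagella, measured 2.35, 3.18 and 3.62 FPKM in sicontrol and 11.8, 8.21 and 6.78 FPKM in siPOU2F1. The highest sicontrol library was below the lowest siPOU2F1 library. The mean rose from 3.05 ± 0.645 to 8.92 ± 2.58 FPKM (SD, n = 3), with a log2 fold change of 1.39 and an SE of 0.23 (limma adjusted p = 0.0486). The call lay close to the threshold. The adjusted p of KIF9 was 0.0525 after quantile normalization and 0.138 without the filter on low values. Dropping siPOU2F1 replicate 3 gave 0.00878, and dropping another library gave 0.114 to 0.25. KIF9 shares 14.9% of its exonic bases with KIF9-AS1 and 3.04% with KLHL18, both on the opposite strand. KLHL18 had means of 7.65 and 7.10 FPKM. The strand setting of the counting is not given, so reads of KIF9 and these genes may not have been told apart.

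None of the other 3 tested members of this role was called with all libraries (limma). Of these, 1 had an unadjusted p under 0.05, against 18.1% of all tested genes. KIF7, a regulator of Hedgehog signalling at the tip of the primary cilium, measured 2.81, 3.13 and 3.01 FPKM in sicontrol and 1.87, 1.78 and 2.28 FPKM in siPOU2F1, without overlap (log2 fold change -0.50, limma adjusted p = 0.168). It shares 11.8% of its exonic bases with TICRR on the opposite strand. KIF24, a depolymerase that restrains the growth of cilia, had 1.69 and 1.5 FPKM in siPOU2F1 replicates 1 and 2 but 3.56 FPKM in replicate 3, inside the sicontrol range of 2.98 to 3.57 FPKM (-0.55, limma adjusted p = 0.34). Without siPOU2F1 replicate 3, KIF7 (-0.58, limma adjusted p = 0.0284) and KIF24 (-0.87, limma adjusted p = 0.0133) were called lower. KIF27, a relative of KIF7, had -0.10 (limma adjusted p = 0.811).

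None of the 12 tested mitotic kinesins was called (limma), with 5 fold changes above 0 and 7 below. At an unadjusted p under 0.05 there were 3, or 25.0%, against 18.1% of all tested genes. These were KIF22, which was higher, and KIF14 and KIF23, which were lower. KIF14, a motor of the central spindle that is needed for cytokinesis, came closest. It measured 8.10, 8.38 and 8.51 FPKM in sicontrol and 5.62, 5.63 and 5.44 FPKM in siPOU2F1, so each group was tight and the groups were apart. Its mean was 8.33 ± 0.208 FPKM in sicontrol and 5.56 ± 0.109 after knockdown (SD, n = 3; log2 fold change -0.54, limma adjusted p = 0.0724). Without siPOU2F1 replicate 3 it was called lower (-0.53, limma adjusted p = 0.02). KIF23 measured 27.6, 31.0 and 29.1 FPKM in sicontrol and 25.2, 24.1 and 24.2 FPKM in siPOU2F1, again without overlap (-0.25, limma adjusted p = 0.241). KIF18B, which regulates the plus ends of astral microtubules, was lower in each siPOU2F1 library than in any sicontrol library (-0.42, limma adjusted p = 0.281).

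The motors that assemble the bipolar spindle had fold changes near 0. KIF11, the motor that pushes spindle poles apart, averaged 21.5 ± 1.66 FPKM in sicontrol and 20.3 ± 1.39 after knockdown (SD, n = 3; log2 fold change -0.08, limma adjusted p = 0.707). KIF15, which can take over part of that task, had 0.02 (limma adjusted p = 0.94). KIFC1, which clusters extra centrosomes, had -0.03 (limma adjusted p = 0.957). KIF4A, the chromokinesin that organises the central spindle, had -0.08, KIF18A, which damps chromosome movements, had 0.06, and KIF20B, a motor of late cytokinesis, had -0.04, with adjusted p from 0.727 to 0.871 (limma).

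In several mitotic kinesins siPOU2F1 replicate 3 lay apart from replicates 1 and 2. KIF2C measured 29.4, 28.5 and 32.1 FPKM in sicontrol and 42.9, 41.0 and 24.4 FPKM in siPOU2F1 (log2 fold change 0.22, limma adjusted p = 0.58). In that group replicates 1 and 2 were the highest of all 6 libraries and replicate 3 was the lowest. KIF22, a chromokinesin that pushes chromosome arms, measured 14.7, 17.0 and 19.5 FPKM in sicontrol and 29.5, 26.9 and 18.1 FPKM in siPOU2F1 (0.51, limma adjusted p = 0.254). Without siPOU2F1 replicate 3, KIF2C (0.48, limma adjusted p = 0.0196) and KIF22 (0.72, limma adjusted p = 0.0173) were called higher. KIF20A, a motor of cytokinesis, varied within both groups, between 10.2 and 21.3 FPKM in sicontrol and between 8.61 and 24.9 FPKM in siPOU2F1 (0.18, limma adjusted p = 0.829).

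Of the 12 mitotic kinesins 8 had their lowest level of all 6 libraries in siPOU2F1 replicate 3, as did 13 of the 33 tested kinesins and 13.5% of all tested genes. The median deviation of the mitotic kinesins from their sicontrol mean was 0.06, 0.07 and -0.27 on the log2 scale in siPOU2F1 replicates 1 to 3. For 30 tested spindle and cell-cycle partners, among them TPX2, PLK1, CCNB1 and MKI67, it was 0.07, -0.04 and -0.33 in the same libraries, and 21 of the 30 had their lowest level in siPOU2F1 replicate 3. The part of this shared shift in the mitotic results was not tested. Within that list 1 of the 30 was called with all libraries (limma), against 1.24% of all tested genes. This was NDC80, a kinetochore protein that binds microtubules, which fell. It measured 49.5, 44.4 and 39.5 FPKM in sicontrol and 26.2, 26.4 and 26.7 FPKM in siPOU2F1 (log2 fold change -0.74, limma adjusted p = 0.0361). For NDC80, dropping siPOU2F1 replicate 3 gave an adjusted p of 0.0111, and dropping another library gave 0.0863 to 0.202. Without siPOU2F1 replicate 3, 3 members of the list were called higher and 2 lower, or 16.7%, against 25.0% of all tested genes. INCENP, NUMA1 and CKAP5 were then higher, and NDC80 and KNSTRN were lower.

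**Figure D4:**
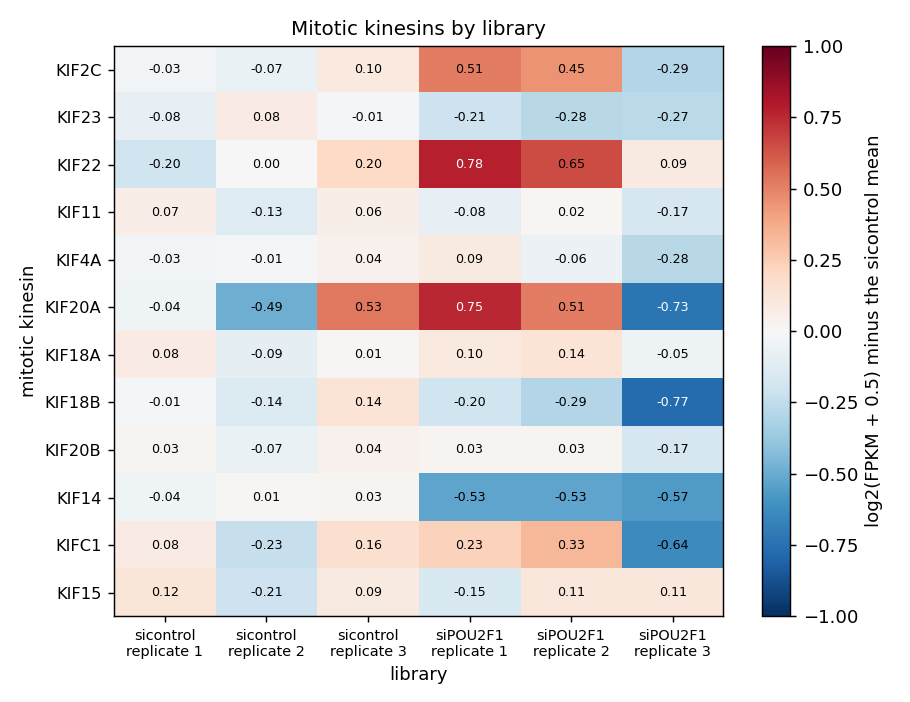
Difference of log2(FPKM + 0.5) from the sicontrol mean (colour and printed value) for the 12 tested mitotic kinesins (rows) in the 6 libraries (columns). KIF14 lies between -0.57 and -0.53 in all 3 siPOU2F1 libraries, whereas KIF2C, KIF20A and KIFC1 are above 0 in siPOU2F1 replicates 1 and 2 and below 0 in replicate 3.

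Apart from KIF3B none of the 12 tested transport kinesins was called (limma). Fold changes were above 0 for 3 and below 0 for 9, where 51.5% of all tested genes were below 0. An unadjusted p under 0.05 was found for 4 (limma), or 33.3%, against 18.1% of all tested genes. These were KIF1A, which was higher, and KIF3B, KIF3A and KIF13A, which were lower. The groups did not overlap for 6 that were lower, KIF3B, KIF3A, KIF13A, KIF13B, KIF1C and KIFC3, and for 1 that was higher, KIF1A. Over all tested genes 12.0% were lower without overlap and 11.3% were higher. The 33 tested kinesins had 10 and 3 such genes. KIF13A, a motor of endosomes and melanosomes, had means of 4.87 ± 0.248 and 3.53 ± 0.354 FPKM (SD, n = 3; log2 fold change -0.42, limma adjusted p = 0.181). KIF1A, the carrier of synaptic vesicle precursors in neurons, measured 13.6, 14.0 and 14.4 FPKM in sicontrol and 17.6, 17.8 and 18.1 FPKM in siPOU2F1, without overlap. Its log2 fold change was 0.34 (limma adjusted p = 0.15), and it was called higher without siPOU2F1 replicate 3 (0.33, limma adjusted p = 0.0497).

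KIF5B measured 47.8, 52.0 and 40.8 FPKM in sicontrol and 33.6, 36.3 and 47.2 FPKM in siPOU2F1, where replicate 3 lay within the sicontrol range (log2 fold change -0.27, limma adjusted p = 0.388). KIF1B, which carries mitochondria and vesicles, had -0.17, KIF16B, which moves early endosomes, had 0.22, KIFC2 had -0.02 and KIFC3 had -0.09, with adjusted p from 0.46 to 0.936 (limma). Of the 5 tested kinesins outside these roles none was called (limma). An unadjusted p under 0.05 was found for 1 of the 5 (limma), against 18.1% of all tested genes. That 1 was KIF26A, an atypical kinesin without ATPase activity, which measured 1.95, 1.96 and 2.77 FPKM in sicontrol and 3.26, 3.74 and 3.22 FPKM in siPOU2F1, without overlap (0.53, limma adjusted p = 0.186). KIF2A, the most abundant of these 5, measured 23.2, 24.2 and 21.2 FPKM in sicontrol and 22.5, 23.4 and 19.3 FPKM in siPOU2F1, and the groups overlapped (-0.08, limma adjusted p = 0.732). KIF2A shares 8.97% of its exonic bases with IPO11 on the same strand. KIF21A and KIF21B, which limit microtubule growth, had 0.01 and 0.39, and KIF12 had -0.01 (limma adjusted p from 0.419 to 0.987).

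None of the 7 tested genes on the list of kinesin partners was called with all libraries (limma). At an unadjusted p under 0.05 there were 4, or 57.1%, against 18.1% of all tested genes. The list holds the light chains, KIFAP3, KIFBP and CENPE, of which CENPE is itself a kinesin. The light chains link conventional kinesin to its cargo. KLC1, the most abundant, measured 67.6, 64.3 and 61.4 FPKM in sicontrol and 52.5, 48.5 and 56.0 FPKM in siPOU2F1, without overlap (log2 fold change -0.30, limma adjusted p = 0.19). KLC4 measured 4.62, 4.06 and 5.07 FPKM in sicontrol and 7.84, 8.02 and 6.11 FPKM in siPOU2F1, and KLC3 measured 8.16, 7.53 and 9.38 FPKM and 11.7, 12.0 and 10.4 FPKM. Both were higher without overlap, with log2 fold changes of 0.62 for KLC4 and 0.42 for KLC3 (limma adjusted p 0.117 and 0.166). KLC2 had -0.27 (limma adjusted p = 0.463) and KIFBP, which binds and inhibits several kinesins, had -0.25 (limma adjusted p = 0.631). CENPE, the kinesin that moves chromosomes to the spindle equator and whose symbol lies outside the rule, measured 7.67, 6.44 and 7.45 FPKM in sicontrol and 5.44, 5.17 and 5.04 FPKM in siPOU2F1 (-0.42, limma adjusted p = 0.157). Without siPOU2F1 replicate 3, 5 of the 7 partners were called, or 71.4%, against 25.0% of all tested genes in that fit. KLC4 (0.73, limma adjusted p = 0.0148) and KLC3 (0.48, 0.0374) were then higher. KLC1 (-0.35, limma adjusted p = 0.0391), KLC2 (-0.48, 0.0275) and KIFBP (-0.57, 0.0298) were lower. KLC2 measured 10.7 and 9.77 FPKM in siPOU2F1 replicates 1 and 2 and 16.2 FPKM in replicate 3, above each sicontrol library. KIFBP measured 6.95 and 6.14 FPKM in replicates 1 and 2 and 13.3 FPKM in replicate 3, also above each sicontrol library.

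Of 26 tested cargo adaptors of kinesins, 1 was called with all libraries, against 1.24% of all tested genes. FYCO1, which links late endosomes and autophagosomes to kinesin, measured 10.4, 10.4 and 11.3 FPKM in sicontrol and 2.30, 2.30 and 2.74 FPKM in siPOU2F1. It fell to 22.9% of the sicontrol mean (log2 fold change -1.93, limma adjusted p = 0.00772). FYCO1 was still called without sicontrol replicate 2 (0.0467), sicontrol replicate 3 (0.0475) or siPOU2F1 replicate 3 (0.00254), and lost its call when sicontrol replicate 1 (0.078) or either of siPOU2F1 replicates 1 and 2 (0.076 and 0.0714) was left out. The FYCO1 3′ UTR held neither of the words described above. The adaptor list had a median log2 fold change of -0.01, and so did all tested genes. Without siPOU2F1 replicate 3, 2 adaptors were called higher and 5 lower, or 26.9%, against 25.0% of all tested genes. MAPK8IP1 and TRAK1 were then higher, and FYCO1, FEZ2, TRAK2, BORCS7 and BORCS8 were lower.

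Neither the opposing motor nor the track held a called gene with all libraries. None of 30 tested dynein and dynactin genes passed (limma; 8 had an unadjusted p under 0.05, or 26.7%, against 18.1% of all tested genes), and the median log2 fold change was -0.03. DYNC1H1, the dynein heavy chain, came closest with 40.6 ± 1.73 and 29.8 ± 1.56 FPKM (SD, n = 3; -0.44, limma adjusted p = 0.0847). None of 12 tested tubulins passed (limma; 2 had an unadjusted p under 0.05, or 16.7%). These were alpha and beta tubulins, which form the track, and TUBG1, a gamma tubulin, which does not. TUBB3, a beta tubulin typical of neurons, had 27.7 ± 4.66 and 44.0 ± 0.947 FPKM (SD, n = 3; 0.67, limma adjusted p = 0.0744). Without siPOU2F1 replicate 3, 3 of the 30 dynein and dynactin genes were called higher and 5 lower, or 26.7% in all, DYNC1H1 among the lower (-0.43, limma adjusted p = 0.0251). Of the 12 tubulins 3 were called higher and 1 lower, or 33.3%, TUBB3 among the higher (0.68, limma adjusted p = 0.0237). The share over all tested genes in that fit was 25.0%.

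Leaving out siPOU2F1 replicate 3 raised the number of called kinesins from 2 to 9 of 33, or 27.3%, against 25.0% of all tested genes in the same fit. These 9 were KIF2C, KIF22, KIF1A and KIF9, all higher, and KIF14, KIF3A, KIF3B, KIF7 and KIF24, all lower. Over all genes 9.29% were higher and 15.7% lower in that fit. Of the 12 mitotic kinesins 3 were then called, KIF2C and KIF22 higher and KIF14 lower. Of the 12 transport kinesins 3 were called, KIF1A higher and KIF3A and KIF3B lower. Both counts are 25.0%. Of the 4 ciliary and Hedgehog kinesins 3 were called, or 75.0%, KIF9 higher and KIF7 and KIF24 lower. Of the 5 other kinesins none was called (limma). At an unadjusted p under 0.05 there were 2, or 40.0%, against 5013 of 11831 tested genes. These were KIF21B and KIF26A (limma adjusted p of 0.0576 and 0.0628).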

How the data were processed

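RNA of 6 HCT116 libraries, 3 sicontrol and 3 siPOU2F1, was made into directional libraries, per the labels' protocols. The deposited values are FPKM per gene and library, made by the authors, with hg38, StringTie 2.1.2, HISAT2 2.0.4 and Bowtie2 2.2.5 in roles that are not stated, per the submitters' processing notes. Neither the annotation nor the strand setting is given in the sources used here. The files hold no counts, so the depth of each library is unknown and no counting interval was given.

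Values were tested as log2(FPKM + 0.5) in R 4.3.3 by limma 3.58.1 (trend on, group as the only term) over the 11831 annotated genes that averaged 1 FPKM or more. P-values were Benjamini-Hochberg adjusted over all of these, and a gene was called under 0.05. Unnamed assembled transcripts (2308 of 22782 rows) were left out. The script was tested on simulated data. Alternatives were other pseudocounts (0.1 and 1), filters, scalings, library weights, the variance model, a replicate block and leaving out each library.

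The members and lists were chosen with earlier results of these data known. Tested kinesins were named with their fold change. Values in every library were given for called kinesins, for kinesins without overlap between groups and a log2 fold change of at least 0.5 in size, for the most abundant kinesin of each role, and for called partners. Values in every library of other kinesins and of partners that were not called were added after their values were seen. Gene models and 3′ UTRs came from GENCODE release 29 (GRCh38, the sequence of hg38), using the transcript with the longest coding sequence, and promoters from RefSeq (GRCh38.p14).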

Additional observations from a re-analysis of the deposited data

How the results depend on the processing

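KIF3B kept its direction under all 16 alternatives and its call under all but the replicate block and the removal of any library except siPOU2F1 replicate 3. Of all tested genes limma called 147, against 46 with no filter, 93 without the variance trend, 5963 with library weights and 0 with the replicate block, and 0 to 2954 with 1 library left out. Of the kinesins it called 2, against 1 with no filter, 1 after quantile normalization, 1 after median scaling, 1 with assembled transcripts, 1 without the variance trend, 18 with library weights and 0 with the replicate block, and 0 to 9 with 1 library left out. At an unadjusted p under 0.05 the block left 1208 genes and 4 kinesins (limma). At the same threshold, the fits that called 0 kinesins after leaving out a library had 1176 to 2046 genes and 6 to 8 kinesins. Where the count was 1, the kinesin kept was KIF3B. The cause of these differences was not tested. POU2F1 had -0.99 with no filter (limma adjusted p = 0.0587) and with the replicate block (0.297), and -1.06 to -0.95 with 1 library left out.

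The correlations of the deviations of same-numbered libraries from the group means were 0.13, -0.54 and -0.51 for numbers 1 to 3. Within a group the deviations cancel out, so these correlations are tied to each other. They cannot show whether same-numbered libraries were handled together, which is what the replicate block assumes.

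With all libraries kept, 287 fold changes of kinesins kept their direction and side of the threshold, 16 gained a call and 7 lost one. Another 10 changed sign, all of them near 0 before the alternative was applied. With library weights they were 0.00 for KIF20B, 0.22 for KIFC1, -0.04 for KIF15, 0.02 for KIFC2, -0.07 for KIF21A and 0.23 for KIF12. After quantile normalization they were 0.02 for KIFC1, 0.03 for KIFC2 and 0.04 for KIF12, which had 0.01 after median scaling. With 1 library left out, the ranges were -0.17 to 0.02 for KIF4A, -0.11 to 0.63 for KIF20A, -0.07 to 0.03 for KIF20B, -0.21 to 0.28 for KIFC1, -0.08 to 0.11 for KIF15, -0.04 to 0.03 for KIFC2, -0.29 to 0.04 for KIF27, -0.13 to 0.00 for KIF2A, -0.06 to 0.07 for KIF21A and -0.17 to 0.29 for KIF12. The median of the cargo adaptors was -0.07 with a filter of 5 FPKM and 0.06 with library weights, and it ran from -0.06 to 0.09 with 1 library left out. The median of the tubulins was -0.04 with no filter.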
